A study of Mus musculus with 12 samples.

Results

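The RNA of mouse embryonic fibroblasts without Ing1 was compared with that of fibroblasts that carry it, across both Gadd45a backgrounds of the study. All 12 libraries of the series entered: 6 Ing1-null (3 titled Ing1-KO, 3 titled DKO) and 6 Ing1-intact (3 titled WT, 3 titled Gadd45a-KO). The main effect of Ing1 loss is the mean of 2 differences, libraries labelled Ing1-/- against those labelled wild type (the WT background) and libraries labelled Gadd45a-/-;Ing1-/- against those labelled Gadd45a-/- (the Gadd45a background). The report centres on genes that moved the same way in both. Per the labels, the cells were primary fibroblasts of C57BL/6N strain from male embryos at E15.5, bred by crossing Ing1-deficient and Gadd45a-deficient mice, grown for 4 passages and harvested at 80% confluency. Separate embryos or cultures within a group are not named in any label, so the p-values measure the spread between libraries, which may be technical. The labels call the alleles deficient without saying which exons were removed.

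Ing1 encodes inhibitor of growth 1, a chromatin protein whose plant homeodomain finger binds methylated lysine on the tail of histone H3 at active gene starts. It is a subunit of the Sin3 histone deacetylase complex, which removes acetyl groups from histones, and it is known as an adaptor that brings Gadd45a, a stress-induced protein that promotes DNA demethylation, to such starts. Embryonic fibroblasts are connective tissue cells that secrete collagens, proteoglycans and growth factors, so genes of the matrix and of growth control form most of the lists described here.

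Counts per gene were the deposited values, with 31493168 to 42852059 counts in genes per library. Levels are given as CPM, counts scaled to library size after TMM normalization and not to gene length, and changes as edgeR log2 fold changes with their standard error (SE). Of 15098 genes tested, a gene is called where its adjusted p (Benjamini-Hochberg, over all genes of that comparison, two-sided) falls below 0.05. The 3 libraries labelled DKO lay apart from the other 9 on the leading principal component, which held 46.1% of the variance. They also held more macrophage RNA: the summed level of 25 macrophage markers ran from 2919 to 3578 CPM in them and from 189 to 840 CPM in the other 9. In RNA from whole cultures, more cells of a type and more RNA per cell cannot be told apart. All 15 fibroblast markers were above the filter on low counts in the 12 libraries, with summed levels of 51890 to 67510 CPM.

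Ing1 (chromosome 8) fell more than any other of the genes called in both backgrounds. Its level was 52.1, 50.4 and 54.4 CPM in WT and 49.7, 54.5 and 52.2 CPM in the libraries labelled Gadd45a KO. In Ing1 KO it was 1.01, 1.23 and 1.42 CPM, and in those labelled DKO 1.30, 0.916 and 1.14 CPM. The 6 null libraries lay far under the 6 intact ones, a 44.5-fold fall (log2 fold change -5.47 ± 0.07, SE, n = 6 against 6, edgeR adjusted p = 9.74e-15). Gadd45a (chromosome 6), which overlaps an annotated gene on the opposite strand, went against its label: WT held 20.9, 21.1 and 21.3 CPM and Ing1 KO 18, 20.5 and 16.7 CPM. The libraries labelled Gadd45a KO held more, 75.9, 118 and 106 CPM, as did those labelled DKO with 132, 120 and 127 CPM. The Gadd45a label is therefore named as a label throughout. The main effect of Ing1 loss on Gadd45a was 0.07 ± 0.10 (edgeR adjusted p = 0.625). The contrast weighs both backgrounds alike, so an exchange of the Gadd45a labels within each Ing1 status would leave the main effect and the genes called the same way as they are.

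The pooled contrast called 5062 genes, 33.5% of those tested, of which 2786 (18.5%) were higher and 2276 (15.1%) lower in the Ing1-null libraries. Most changes were small, with a median of 0.278 (log2) among called genes, while 338 genes rose and 226 fell at least 2-fold. A call in the pooled contrast did not stand for both backgrounds. Ing1 KO against WT called 3543 genes (23.5%, with 12.1% higher and 11.4% lower). Labelled DKO against labelled Gadd45a KO called 3988 (26.4%, with 15.8% higher and 10.6% lower), and these comparisons share no library. Genes called with the same sign in both, and in the pooled contrast, numbered 973 (6.44%), of which 463 were higher (3.07%) and 510 lower (3.38%). They made up 27.5% of the calls in the WT background and 24.4% of those in the Gadd45a background. A further 191 genes (1.27%) were called in both with opposite signs, 80 higher in the WT background and lower in the Gadd45a background and 111 the reverse. The interaction, which tests whether the change differed between backgrounds, called 2687 genes (17.8%; 10.4% with a more positive change in the Gadd45a background and 7.4% with a more negative one), among them 59 of the 973. Without Ing1 KO replicate 2 the count called the same way was 646.

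Genes called the same way changed by about as much in each background, with a median size of 0.413 (log2) in the WT background and 0.407 in the Gadd45a background. Those that fell changed more (median size of the main effect 0.571) than those that rose (0.321), and were covered by fewer counts, with a median of 16.2 CPM against 47.8 CPM and 18.6 CPM over all genes tested. At least 2-fold in both backgrounds were 15 genes higher and 82 lower. The 6 null libraries all lay above the 6 intact ones for 375 of the 463 and all below for 447 of the 510. Over all genes tested they lay all above for 4.42% and all below for 5.09% (9.5% together). The 463 and 510 were picked by calls on these same libraries, which favours such separation, so the shares are not a like comparison. For the 12 genes that rose and the 12 that fell most, separation was part of the naming rule.

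**Figure D1:**
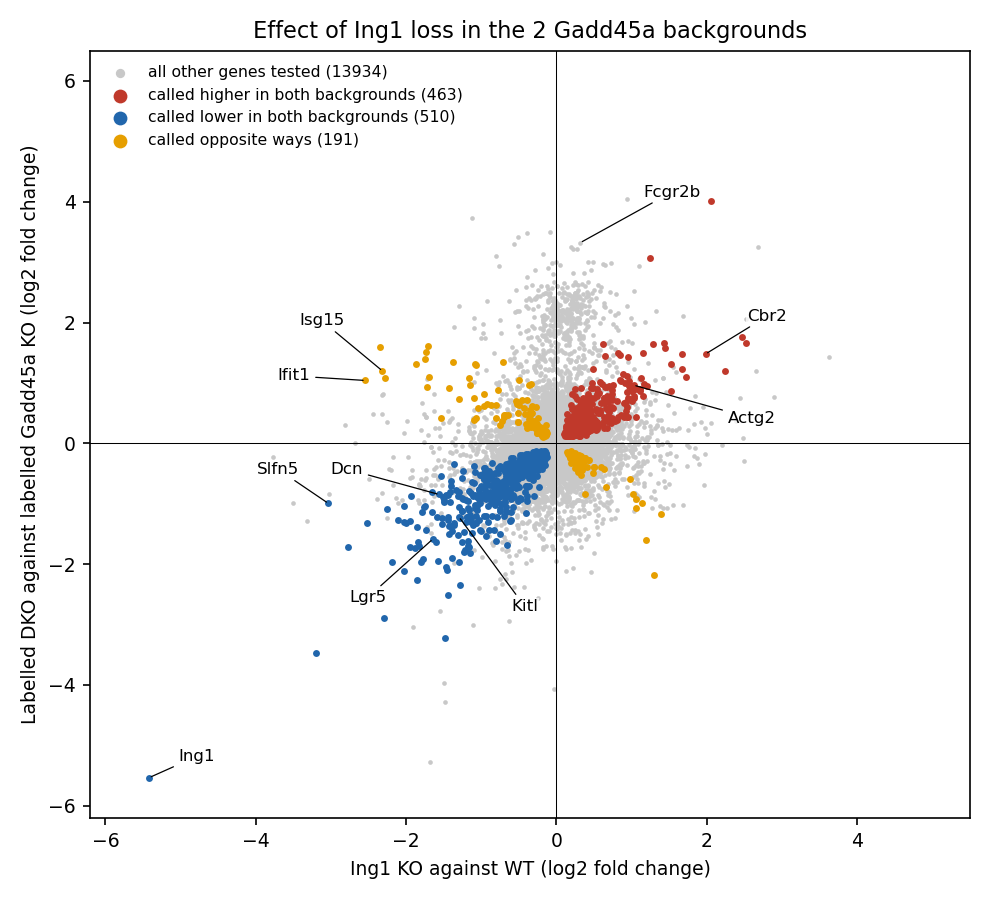
Log2 fold change with Ing1 loss in the WT background (x axis, Ing1 KO against WT) and in the Gadd45a background (y axis, labelled DKO against labelled Gadd45a KO), 1 point per gene tested. Red and blue points are the 463 and 510 genes called higher or lower in both, orange points the 191 called opposite ways, and grey points all others; 1 gene lies outside the axes. The grey column above the centre, where Fcgr2b lies, holds genes higher in the labelled DKO libraries with little change in Ing1 KO.

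Interferon-stimulated genes, which cells switch on in answer to viral infection, mostly fell with Ing1 loss in the WT background (39 of 50), while in the Gadd45a background 27 rose and 20 were not called. Slfn5, a schlafen family gene of this response, went down in both, by more than any other gene but Ing1 among those with a mean of 2 CPM or more and no overlap between null and intact libraries. It stood at 15.0, 19.4 and 16.9 CPM in WT and 13.3, 12.1 and 12.4 CPM in labelled Gadd45a KO, against 2.79, 1.57 and 1.92 CPM in Ing1 KO and 6.24, 5.15 and 7.51 CPM in labelled DKO. All 6 null libraries lay under all 6 intact ones, a fall of 8.21-fold in the WT background and 1.99-fold in the Gadd45a background (main effect -2.01 ± 0.13, SE, edgeR adjusted p = 3.41e-06). Isg15, which encodes a ubiquitin-like protein that is attached to other proteins, stood at 22.7, 21.6 and 12.5 CPM in WT and 11, 7.22 and 9.09 CPM in labelled Gadd45a KO. In Ing1 KO it was 3.13, 3.93 and 4.34 CPM and in labelled DKO 18.2, 17.5 and 26.9 CPM. The Ing1 KO libraries were lowest, those labelled Gadd45a KO came next, and WT overlapped with labelled DKO, so the gene fell 4.98-fold in one background and rose 2.3-fold in the other. Ifit1, whose product binds foreign RNA, fell 5.83-fold and rose 2.06-fold, and Usp18, which removes Isg15 from proteins, fell 4.84-fold and rose 2.11-fold. For these 3 genes the pooled main effect (-0.75 for Ifit1, -0.56 for Isg15, -0.60 for Usp18) describes neither background, and its call was lost in 11 (Ifit1) or 12 of 17 alternative settings.

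The promoters of Slfn5, Isg15 and Ifit1 are shown because these genes share a motif and differ in direction. Each run is the 250 bases before the transcript start in RefSeq's table for build GRCm38.p6, on the gene's own strand: Slfn5 chr11:82951852-82952101 (+), Isg15 chr4:156200819-156201068 (-) and Ifit1 chr19:34640639-34640888 (+). Capitals mark matches to the interferon-stimulated response element, searched on both strands as the letters GAAA, any 2 bases and GAAA again.
Slfn5: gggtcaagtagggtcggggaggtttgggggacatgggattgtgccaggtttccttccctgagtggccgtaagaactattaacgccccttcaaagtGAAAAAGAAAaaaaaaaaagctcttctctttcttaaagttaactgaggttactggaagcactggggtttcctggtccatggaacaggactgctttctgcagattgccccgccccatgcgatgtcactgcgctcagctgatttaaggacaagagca
Isg15: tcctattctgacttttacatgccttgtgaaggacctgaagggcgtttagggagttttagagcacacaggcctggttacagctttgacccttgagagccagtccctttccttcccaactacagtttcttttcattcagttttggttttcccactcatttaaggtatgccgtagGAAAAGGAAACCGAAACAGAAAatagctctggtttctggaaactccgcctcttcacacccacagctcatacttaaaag
Ifit1: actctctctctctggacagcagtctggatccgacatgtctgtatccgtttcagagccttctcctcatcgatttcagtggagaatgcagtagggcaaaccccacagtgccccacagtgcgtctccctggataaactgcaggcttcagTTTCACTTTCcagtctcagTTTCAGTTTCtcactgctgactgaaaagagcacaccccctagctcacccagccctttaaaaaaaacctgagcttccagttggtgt
Slfn5 had 1 match that begins 155 bases before the start, within a stretch rich in A. Isg15 had 3 matches that overlap one another, at 78, 72 and 66 bases before the start, and Ifit1 had 2 on the reverse strand, at 104 and 85. In 300-base windows, which run to 50 bases after the start, the motif was in 3.49% of the 27025 gene windows of the table. A window was found for 156 of the 191 genes called opposite ways, and 19 of these (12.2%) held the motif; a window was found for 375 of the 463 genes called higher in both, and 2 of these (0.533%) held it. Of the 510 genes called lower in both 72.5% had a window, and of all genes tested 74%, too few for a share to be given. The gene windows of the table include genes not tested here, so their 3.49% is not a like baseline. A match is a description of the letters and not a binding site.

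Of 50 interferon-stimulated genes tested, 39 fell and 11 were not called in the WT background, where 11.4% of all genes fell. In the Gadd45a background, where 15.8% of all genes rose, 27 rose, 3 fell and 20 were not called. Called opposite ways were 20, beside 1.27% of all genes. The rise is that of labelled DKO over labelled Gadd45a KO, which was the lower of the 2, and labelled DKO overlapped with WT. The interferon list's summed level was 780 to 967 CPM in labelled DKO and 691 to 725 CPM in labelled Gadd45a KO. It was 791 to 913 CPM in WT and 514 to 546 CPM in Ing1 KO. All 25 macrophage markers rose in the labelled DKO libraries (2919 to 3578 CPM summed, against 189 to 840 CPM in the other 9). The part of these markers in the rise was not tested. In the WT background, where 39 interferon genes fell, none of the 25 was called (edgeR, 0 at an unadjusted p under 0.05, DESeq2 0). The list's median log2 fold change was -1.11 in the WT background and 0.52 in the Gadd45a background, beside -0.0026 and -0.0030 over all genes tested. Besides Slfn5, Ifi27 alone among them was called lower in both (main effect -0.56, and so called in 9 of 18 alternatives), and Oas2, Ddx60, Ifi44 and Bst2 were among the 20. Of 27 genes of interferon signalling 5 were called opposite ways, among them the transcription factor gene Irf7 (-1.43 and 0.92) and the RNA sensor genes Ddx58 and Ifih1, and none the same way (edgeR, 2 at an unadjusted p under 0.05 throughout, DESeq2 0). Of 19 genes of MHC class I presentation, which shows peptides to T cells, 3 (H2-D1, B2m and Psmb8) were called opposite ways and Tap2, a peptide transporter gene, was lower in both (-0.36), though in 5 of 18 alternatives. Reads of the Ifit, Oas and Slfn families are uncertain because near-identical copies share them, and Slfn5, Usp18 and Tap2 overlap genes on the opposite strand.

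**Figure D2:**
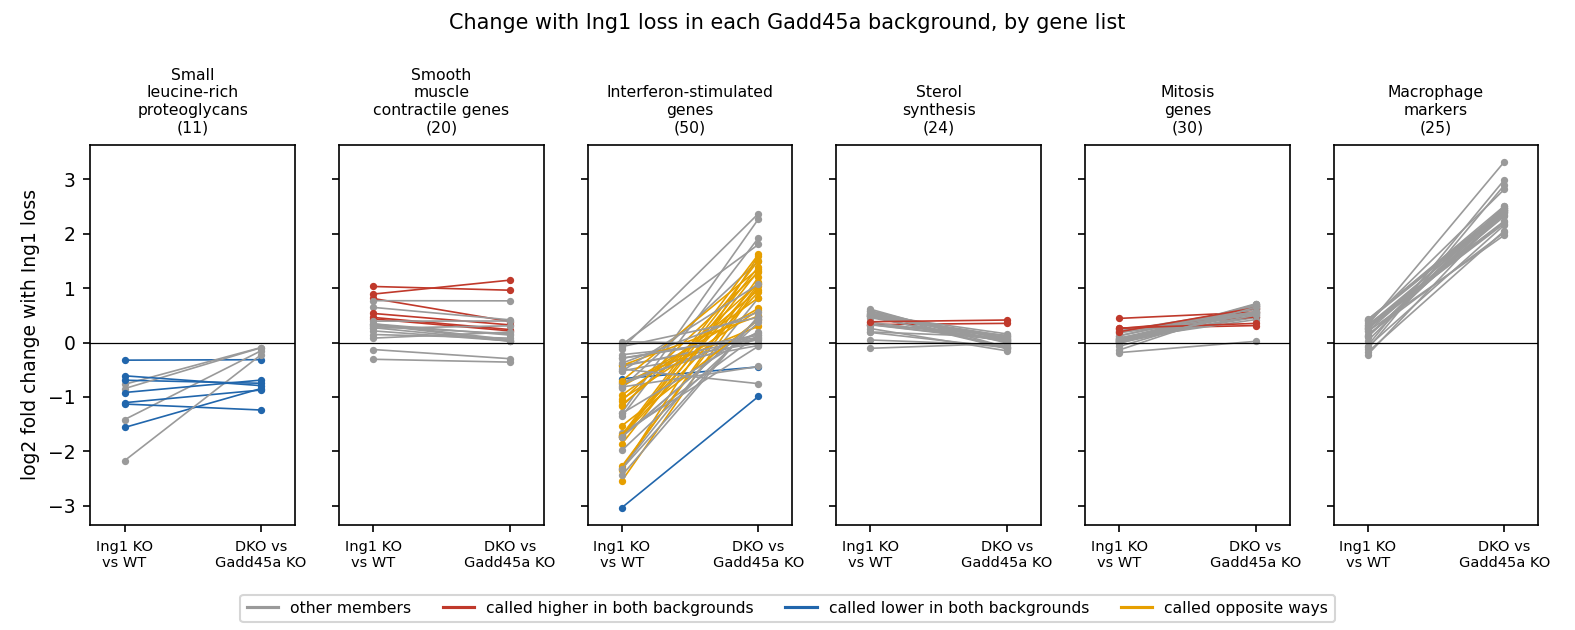
Log2 fold change with Ing1 loss of each tested member of 6 gene lists, in the WT background (left end of each line) and the Gadd45a background (right end). Lines are 1 gene each, coloured by call; small leucine-rich proteoglycans stay below 0 at both ends, contractile genes lie mostly above it, 20 of 50 interferon-stimulated genes were called on opposite sides of it, and sterol, mitosis and macrophage genes move mainly in 1 background.

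The 12 genes that fell most, by the same rule and with Ing1 left aside, were Slfn5 and 11 genes of mixed function. Lgr5, a receptor for R-spondins that amplifies Wnt signalling and marks stem cells in gut and skin, stood at 366, 331 and 333 CPM in WT, 330, 289 and 280 CPM in labelled Gadd45a KO, 115, 72.9 and 142 CPM in Ing1 KO and 91.3, 96.8 and 111 CPM in labelled DKO. The null libraries did not overlap with the intact ones, with a fall of 3.13-fold and 3.00-fold in the 2 backgrounds (main effect -1.62 ± 0.14, SE, edgeR adjusted p = 9.36e-05). Chodl, which encodes the membrane protein chondrolectin, fell 3.17-fold and Apod, a secreted lipid-binding protein gene, 3.08-fold in the main effect. Prrg3, which encodes a membrane protein with a Gla domain, fell 3.39-fold, from 8.38 to 12.2 CPM over the intact libraries to 1.98 to 4.37 CPM over the null ones. The remaining genes of the 12 were Ryr3, an intracellular calcium channel gene (-1.98), Matn4, a cartilage matrix gene (-1.88), Cyp4b1 (-1.69), Gm11816 (-1.65), Lonrf2 (-1.63), the matrix protein gene Spon1 (-1.62) and Adh1, an alcohol dehydrogenase gene (-1.62). All 12 were called the same way in 18 of 18 alternative settings except Adh1, which was in 12. Ryr3, Matn4, Gm11816, Adh1 and Lgr5 overlap genes on the opposite strand.

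Small leucine-rich proteoglycans coat collagen fibrils and bind growth factors. Their share called lower in both backgrounds was the highest of the 38 lists with tested members, 7 of 11 (63.6%, beside 3.38% of all genes). In the pooled contrast 10 fell (beside 15.1% of all genes) and 1 was not called, with a median of -0.78 (0.0048 over all genes tested). Dcn, which encodes decorin, stood at 373, 442 and 363 CPM in WT, 288, 316 and 280 CPM in labelled Gadd45a KO, 170, 108 and 121 CPM in Ing1 KO and 151, 171 and 170 CPM in labelled DKO. The null libraries lay under the intact ones in both backgrounds, and the fall was larger in the WT background (2.95-fold) than in the Gadd45a background (1.80-fold; interaction edgeR adjusted p = 0.0456). Podn, which encodes podocan, fell from a range of 139 to 179 CPM in the intact libraries to 72.2 to 116 CPM in the null ones. Bgn, the biglycan gene, fell by the same small amount in both, from 8138 to 8578 CPM to 6281 to 6974 CPM (-0.32 ± 0.04, SE, edgeR adjusted p = 5.72e-05). Members beyond 3 per list were named after their values were seen: Fmod (-0.99), Prelp (-1.19), Omd (-0.72) and Ecm2 (-0.70) were also lower in both, while Lum, Aspn, Ogn and Kera were called in the WT background and not in the other. The difference between backgrounds was itself called for Aspn (interaction edgeR adjusted p = 0.0167) and Kera (0.0207), and not for Lum (0.0904) or Ogn (0.179).

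Enzymes that cut the matrix and their inhibitors also fell more often than they rose in both backgrounds. Among 22, 5 were lower (22.7%, beside 3.38% of all genes) and 1 higher (4.55%, beside 3.07%), with a pooled median of -0.23. Adamts1, a secreted protease gene, stood at 298, 305 and 278 CPM in WT, 285, 254 and 240 CPM in labelled Gadd45a KO, 191, 182 and 194 CPM in Ing1 KO and 145, 152 and 160 CPM in labelled DKO (-0.70 ± 0.04, SE, edgeR adjusted p = 1.81e-06), the null libraries all under the intact ones. Adamts2, which trims procollagen, fell by 0.44, and Timp3, a matrix-bound inhibitor of metalloproteinases that overlaps another gene, by 0.68 on the log2 scale. Adamts5 (-0.64) and Mmp11 (-0.75) were also lower, and Mmp10, a stromelysin gene at 0.294 to 0.835 CPM in the intact libraries, was higher at 1.18 to 3.82 CPM. Of 42 collagen and matrix assembly genes, 13 fell and 6 rose in the pooled contrast, where 15.1% and 18.5% of all genes did. In both backgrounds 2 were called the same way, and these rose (4.76%, beside 3.07% of all genes). They were Tnc, the tenascin C gene, at 2863 to 3656 CPM in the intact and 4065 to 4679 CPM in the null libraries (0.40), and Loxl2, a collagen cross-linking enzyme gene (0.23).

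**Figure D3:**
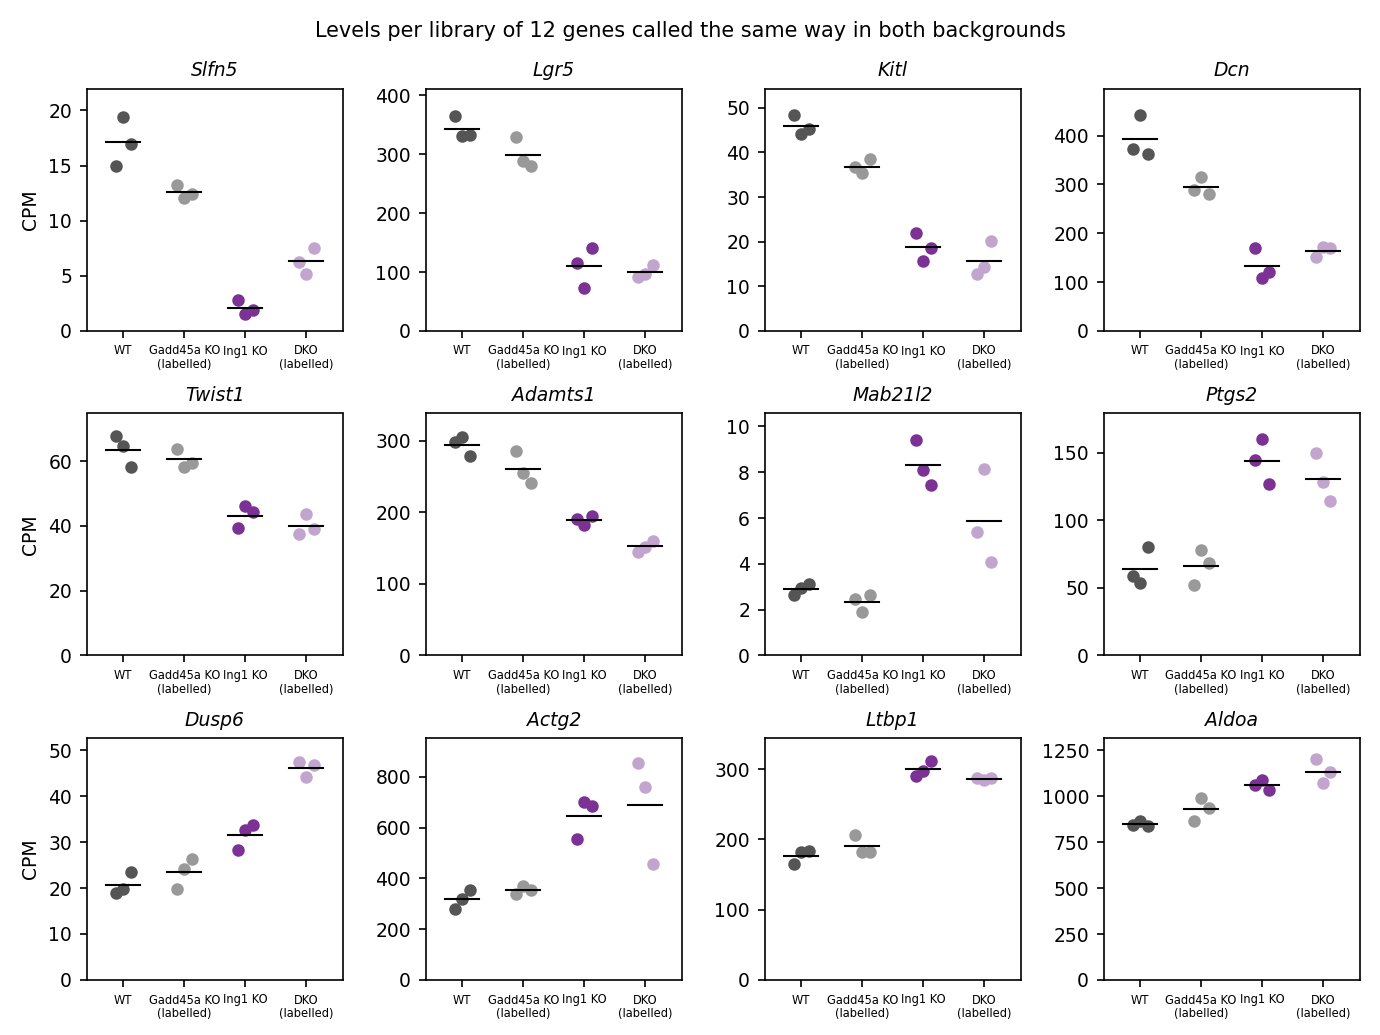
Levels in CPM (y axis, starting at 0) of 12 genes called the same way in both backgrounds, with 1 point per library and a line at the mean of 3. In each panel the 6 Ing1-null libraries (Ing1 KO, labelled DKO) lie below or above the 6 intact ones (WT, labelled Gadd45a KO).

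Of 30 growth factor ligands and receptors, 14 fell and 5 rose in the pooled contrast, where 15.1% and 18.5% of all genes did. In both backgrounds 3 were lower (10%, beside 3.38% of all genes) and 1 higher (3.33%, beside 3.07%). The count of 4 was 2 without WT replicate 1, labelled Gadd45a KO replicate 2 or labelled DKO replicate 3. Kitl, the ligand of the Kit receptor, stood at 48.4, 44.2 and 45.2 CPM in WT, 36.6, 35.3 and 38.4 CPM in labelled Gadd45a KO, 22, 15.7 and 18.6 CPM in Ing1 KO and 12.8, 14.3 and 20.1 CPM in labelled DKO. The null libraries lay under all intact ones, a 2.39-fold fall (-1.26 ± 0.11, SE, edgeR adjusted p = 4.04e-05). Fgf21, a circulating metabolic hormone gene, fell 2.22-fold from a range of 4.69 to 5.70 CPM to 1.81 to 2.70 CPM, Vegfc, a lymphatic growth factor gene, fell by 0.42 (log2; called in both in 9 of 18 alternatives), and Met, the receptor of hepatocyte growth factor, rose by 0.27. Of 30 Wnt pathway genes 3 (10%, beside 3.38% of all genes) were lower in both, Lgr5 and the feedback inhibitor genes Nkd1 (-0.97) and Nkd2 (-0.61). The ligand gene Wnt5a (0.23) was the 1 higher in both (3.33%, beside 3.07%). Nkd1 ran from 18.3 to 21.9 CPM in the intact libraries and from 8.43 to 12.1 CPM in the null ones.

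Of 19 genes of the insulin-like growth factor axis, 4 (21.1%, beside 3.38% of all genes) were lower in both backgrounds and none was higher. At an unadjusted p under 0.05 throughout in edgeR, and by DESeq2, 4 were also called the same way. Irs1, an adaptor of the insulin receptor, ranged from 58.4 to 74.9 CPM in the intact libraries, 51.9 to 55.3 CPM in Ing1 KO and 33.8 to 37.9 CPM in labelled DKO, and fell more in the Gadd45a background (-0.88) than in the WT background (-0.30; interaction edgeR adjusted p = 0.00932). Ghr, the growth hormone receptor gene, fell by 0.39, Pik3r1, a regulatory subunit of phosphoinositide kinase, by 0.26, and Igfbp3, a secreted binding protein, by 1.40. Of 24 genes listed as imprinted growth genes, 5 (20.8%, beside 3.38% of all genes) were lower in both: Dcn, Plagl1, Mest, Sgce and Impact. The class is named for expression from 1 parental allele, which was not tested here, and Dcn is also among the proteoglycans above. The count of 5 was 3 without WT replicate 1 or 3, labelled Gadd45a KO replicate 1, Ing1 KO replicate 2, or labelled DKO replicate 1 or 3. Plagl1, a zinc finger factor that is known to regulate other imprinted genes, stood at 171, 193 and 162 CPM in WT, 192, 141 and 151 CPM in labelled Gadd45a KO, 91.3, 66.9 and 82.5 CPM in Ing1 KO and 107, 122 and 83.2 CPM in labelled DKO, the null libraries all under the intact ones. Cdkn1c, a growth inhibitor gene, was called in the WT background (-1.11) and not in the other (-0.34, edgeR adjusted p = 0.126), with an interaction adjusted p of 0.0367.

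Among transcription factors of mesenchyme, Twist1, which is needed for mesoderm and limb development, fell evenly. It stood at 67.7, 64.8 and 58.2 CPM in WT, 63.9, 58.3 and 59.5 CPM in labelled Gadd45a KO, 39.3, 46.1 and 44.3 CPM in Ing1 KO and 37.4, 43.8 and 39.2 CPM in labelled DKO (-0.58 ± 0.05, SE, edgeR adjusted p = 1.8e-05). In the list of 27 limb and T-box factors, Tbx15 was also lower in both (-0.34) and Ptch1, the hedgehog receptor gene, higher (0.42), though Ptch1 was called so in 4 of 18 alternatives. Within this list 7.41% were lower in both and 3.7% higher, beside 3.38% and 3.07% of all genes. The count of 3 (Twist1 included) ran from 1, without WT replicate 2, labelled Gadd45a KO replicate 1 or 3 or labelled DKO replicate 1, to 5, without Ing1 KO replicate 3. Of 35 Hox genes, Hoxd8 alone was called the same way in both (-0.78). Of 21 adipocyte genes 2 (9.52%, beside 3.38% of all genes) were lower in both. They were Pparg, the master regulator of fat cells, at 2 to 2.5 CPM in the intact and 1.24 to 1.76 CPM in the null libraries, and the early factor gene Ebf1 (-0.48). Of 16 cartilage genes 3 rose and 2 fell in the pooled contrast, where 18.5% and 15.1% of all genes did. Their median was 0.46 in the WT background and -0.08 in the Gadd45a background. The 2 called in both (12.5%, beside 3.38% of all genes), Col9a2 (-1.40) and Matn4, fell, and both were under 5 CPM. Of 11 osteoblast genes none was called the same way by edgeR (1 at an unadjusted p under 0.05 throughout, DESeq2 1); Spp1, the osteopontin gene, lay above all intact libraries in the 6 null ones (481 to 1412 against 127 to 400 CPM) but missed the call in the Gadd45a background (1.26, edgeR adjusted p = 0.0814).

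The 12 genes that rose most, by the same rule, were covered by few counts apart from Ptgs2, Actg2 and Ankrd1. Cbr2, a carbonyl reductase gene, rose 3.33-fold in the main effect, from levels under 2 CPM in the 6 intact libraries. Mab21l2, a developmental gene of eye and limb, stood at 2.64, 2.94 and 3.13 CPM in WT, 2.47, 1.92 and 2.64 CPM in labelled Gadd45a KO, 9.41, 8.12 and 7.46 CPM in Ing1 KO and 5.38, 8.12 and 4.06 CPM in labelled DKO. The null libraries were all higher (1.42 ± 0.15, SE, edgeR adjusted p = 6.28e-05). Ptgs2, the inducible prostaglandin synthase gene, stood at 58.7, 53.7 and 80.6 CPM in WT, 52.3, 77.8 and 68.2 CPM in labelled Gadd45a KO, 145, 161 and 127 CPM in Ing1 KO and 150, 128 and 114 CPM in labelled DKO, a 2.1-fold rise. Others of the 12 were the chemokine gene Ppbp (1.32), the placental growth factor gene Pgf (1.15), the kinase genes Camk1d (1.14) and Nek3 (1.03), Tmem37 (1.05) and Stxbp6 (1.00). Camk1d rose more in the Gadd45a background (1.65) than in the WT background (0.62; interaction edgeR adjusted p = 0.00779), and Tmem37 did so too (1.45 and 0.65; 0.0382). The labelled DKO libraries, in which both stood highest, are those with the macrophage markers, whose part in the rise was not tested. Ppbp and Ankrd1 were called the same way in 13 of 18 alternatives, and Mab21l2, Camk1d and Stxbp6 overlap genes on the opposite strand.

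Contractile genes of smooth muscle, which form stress fibres in fibroblasts, rose. In the pooled contrast 16 of 20 were higher, beside 18.5% of all genes. In both backgrounds 6 (30%, beside 3.07% of all genes) were higher, with none lower in either. Their median was 0.34 in the WT background and 0.20 in the Gadd45a background. Actg2, a smooth muscle actin gene, stood at 279, 318 and 355 CPM in WT, 338, 370 and 355 CPM in labelled Gadd45a KO, 556, 703 and 684 CPM in Ing1 KO and 854, 760 and 458 CPM in labelled DKO. All null libraries were above all intact ones although the labelled DKO values were spread widely (1.00 ± 0.15, SE, edgeR adjusted p = 0.00105). Tpm1 and Tpm2, tropomyosin genes, rose by 0.43 and 0.35, and Cnn1, the calponin gene, rose more in the WT background (0.81) than in the Gadd45a background (0.39; interaction edgeR adjusted p = 0.0273). Ankrd1 (1.02) and Tagln (0.32) completed the 6, and Acta2 and Myl9 were called in the WT background and not in the other (0.16 and 0.14). A CArG box, the motif of serum response factor, was in 1.57% of all gene windows and in 15 of the 375 (4%) of genes called higher in both. All gene windows include genes not tested here, so these shares are not a like comparison. Among the 15 were the actin gene Actg1 and the LIM domain genes Fhl1 and Ldb3, and also genes outside the contractile list such as Ldha, Ing2, Cbr2 and Ppbp. Of the 6 contractile genes none is among the 15, and no window was found for Actg2 and Tagln.

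Of 33 genes of the TGF-beta and BMP pathway 8 rose and 7 fell in the pooled contrast, where 18.5% and 15.1% of all genes did. In both backgrounds 2 rose (6.06%, beside 3.07% of all genes) and 1 fell (3.03%, beside 3.38%). Ltbp1, which anchors latent TGF-beta in the matrix, stood at 165, 182 and 184 CPM in WT, 207, 182 and 182 CPM in labelled Gadd45a KO, 290, 297 and 312 CPM in Ing1 KO and 287, 285 and 287 CPM in labelled DKO. The null libraries were tightly grouped above the intact ones (0.67 ± 0.04, SE, edgeR adjusted p = 1.81e-06). Tgfb1, the ligand gene, rose 1.41-fold from a range of 34.3 to 45.7 CPM to 41.3 to 59.3 CPM, with overlap, and Nog, an antagonist of bone morphogenetic proteins at 1.63 to 2.99 CPM in the intact libraries, fell by 1.23 (log2). The count of 3 was 2 without WT replicate 1, 6 without labelled DKO replicate 3 or Ing1 KO replicate 3, and 5 without Ing1 KO replicate 1 or 2. Of 26 immediate early genes, which answer growth signals within minutes, 15 rose and 2 fell in the pooled contrast. Among all genes 18.5% rose and 15.1% fell. Called higher in both were 4 (15.4%, beside 3.07% of all genes): Dusp6, Jun, Btg2 and Fosl1. The count of 4 was 1 without labelled Gadd45a KO replicate 1 and 2 without its replicate 3 or any one of the labelled DKO libraries. Dusp6, a phosphatase that restrains ERK kinase, stood at 18.8, 19.7 and 23.5 CPM in WT, 19.8, 24.2 and 26.3 CPM in labelled Gadd45a KO, 28.2, 32.5 and 33.8 CPM in Ing1 KO and 47.3, 44.2 and 46.9 CPM in labelled DKO. Of 27 chemokine and cytokine genes, Il1b alone was called the same way, at 0 to 0.151 CPM in the intact libraries, 0.181 to 0.240 CPM in Ing1 KO and 0.955 to 1.78 CPM in labelled DKO, and in 8 of 18 alternatives; macrophages also express it, and the part of their markers was not tested.

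Genes of glycolysis and the hypoxia response were called higher more often in the Gadd45a background, with 22 of 25 higher, than in the WT background, with 6 higher and 1 lower. Among all genes 15.8% were higher in the Gadd45a background and 12.1% in the WT background. The labelled DKO libraries of the Gadd45a background also held the macrophage markers, whose part was not tested. In the pooled contrast 17 rose, beside 18.5% of all genes, and none fell. In both backgrounds 6 (24%, beside 3.07% of all genes) rose: Gpi1, Pfkl, Aldoa, Eno1, Pkm and Ldha, which span the path from hexose phosphate to lactate. Aldoa, the aldolase gene, stood at 845, 865 and 836 CPM in WT, 868, 989 and 935 CPM in labelled Gadd45a KO, 1063, 1088 and 1032 CPM in Ing1 KO and 1202, 1071 and 1132 CPM in labelled DKO (0.30 ± 0.04, SE, edgeR adjusted p = 0.000138). Pkm, the pyruvate kinase gene, ranged from 1733 to 2074 CPM in the intact libraries and from 2216 to 2514 CPM in the null ones. The 6 changes lay between 0.27 and 0.32. With 1 library left out the count of 6 ran from 4 (without WT replicate 1) to 9 (without Ing1 KO replicate 3). Aldoc, another aldolase gene, was called opposite ways (-0.68 and 0.47). In sterol synthesis the calls did not carry over. In the WT background 21 of 24 genes rose and in the Gadd45a background 2, beside 12.1% and 15.8% of all genes. Those 2 (8.33%, beside 3.07% of all genes) were called in both, among them Stard4, a sterol carrier gene (0.40).

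Genes of cell division were called higher mainly in the Gadd45a background, where the labelled DKO libraries also held the macrophage markers, whose part was not tested. Of 30 mitosis genes 29 were called higher in the Gadd45a background and 5 in the WT background, beside 15.8% and 12.1% of all genes. The 5 (16.7%, beside 3.07% of all genes) were called higher in both: Plk1, Cdca8, Kif20a, Cdc20 and Foxm1. Plk1, a mitotic kinase gene, stood at 22.7, 24.4 and 21.6 CPM in WT, 23.9, 26.6 and 23.5 CPM in labelled Gadd45a KO, 29.3, 35.5 and 28.6 CPM in Ing1 KO and 37.1, 37.5 and 34.4 CPM in labelled DKO, the null all above the intact (0.50 ± 0.06, SE, edgeR adjusted p = 7.67e-05). The count of 5 was 1 when each background was fitted on its own and without WT replicate 1 or Ing1 KO replicate 2, 2 without WT replicate 3, and 8 without WT replicate 2. Of 30 S phase genes 29 were higher in the Gadd45a background and 2 in the WT background, beside 15.8% and 12.1% of all genes. The 1 called higher in both (3.33%, beside 3.07% of all genes) was Cdt1, a licensing factor of replication (0.42). Of 29 p53 targets 4 (13.8%, beside 3.07% of all genes) rose in both. They were Pmaip1 and Mdm2, which respectively promote cell death and restrain p53, Plk3 and Btg2. A further 4 were called opposite ways (Bbc3, Sesn1, Aen and Plk2), beside 1.27% of all genes. Pmaip1 ranged from 32.4 to 37.5 CPM in the intact libraries, 51.5 to 66.2 CPM in Ing1 KO and 39.6 to 47.4 CPM in labelled DKO. Of 13 INK4, cyclin D and Rb genes, Cdk6, a kinase of the start of the cycle, rose in both by 0.23, and was called so in 6 of 18 alternatives.

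Changes among partners of Ing1 were small in size. Of 18 genes of the Sin3 histone deacetylase complex 9 rose and 2 fell in the pooled contrast, where 18.5% and 15.1% of all genes did. The median was 0.09, and 2 (11.1%, beside 3.07% of all genes) rose in both backgrounds. Sin3a, the scaffold gene, stood at 67.5, 68.4 and 67.2 CPM in WT, 68.8, 67.3 and 67.6 CPM in labelled Gadd45a KO, 77.8, 77.2 and 80.6 CPM in Ing1 KO and 80.7, 77.7 and 85.5 CPM in labelled DKO. All null libraries were above the intact ones, by 1.18-fold (0.24 ± 0.03, SE, edgeR adjusted p = 0.000109), and Suds3, another subunit gene, rose by 0.18. Ing2, the relative of Ing1 that sits in the same complex, was higher in both (0.38), from 8.75 to 9.69 CPM in the intact to 10.8 to 13.8 CPM in the null libraries; it was called so in 12 of 18 alternatives. Ing3 was lower in the WT background (-0.38) and not called in the other (-0.14), Ing4 was lower in the pooled contrast (-0.15), and Ing5 was not called (0.01). Sin3a, Suds3 and Ing2 overlap genes on the opposite strand. Of 26 enzymes and readers of DNA methylation, Uhrf1, which guides maintenance methylation, was the one called in both (0.42), and it rose with the S phase genes more in the Gadd45a background (0.59) than in the WT background (0.26; interaction edgeR adjusted p = 0.0361).

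Of 25 antioxidant and NRF2 target genes 5 (3 lower, 12%, and 2 higher, 8%, beside 3.38% and 3.07% of all genes) were called the same way, and 3 without labelled Gadd45a KO replicate 1 or labelled DKO replicate 1. Gstm2 (-0.78), Mgst1 (-0.72) and Gpx7 (-0.21) fell in both and Nfe2l2, the gene of the factor itself, and Txnrd1 rose (both 0.25). In the pooled contrast 12 of 26 genes of amino acid and unfolded protein stress fell (beside 15.1% of all genes) and 1 rose (18.5%). In the Gadd45a background 15 fell and in the WT background 1, beside 10.6% and 11.4% of all genes. None was called the same way (edgeR, 2 at an unadjusted p under 0.05 throughout, DESeq2 0). Ddit3 and Trib3, stress response genes, changed by -0.75 and -0.89 in the Gadd45a background and by -0.11 and -0.13 in the other, with interaction edgeR adjusted p-values of 0.0155 and 0.00549. Of 12 mitochondrially encoded genes none was called the same way (edgeR and DESeq2, and 0 at an unadjusted p under 0.05 throughout). Called opposite ways were 4, beside 1.27% of all genes, each lower in the WT background and higher in the Gadd45a background. Of 26 lysosome genes Ctsd, a cathepsin gene, rose in both (0.38) and Ctsk, the collagen-degrading cathepsin of bone, fell in both (-0.44); Ctsd rose more in the Gadd45a background (0.56 against 0.20), where the macrophage markers were high, and their part in this was not tested.

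Markers of other cell types were mostly not shared. Over all genes tested, 18.5% rose and 15.1% fell in the pooled contrast, and 15.8% rose in the Gadd45a background. All 25 macrophage markers were called higher in the Gadd45a background and none in the WT background (edgeR, 0 at an unadjusted p under 0.05 and DESeq2 0), so 24 were called in the pooled contrast and none the same way (0 at an unadjusted p under 0.05 and by DESeq2). Lyz2, the lysozyme gene, named after its values were seen, stood at 85.8, 146 and 147 CPM in WT, 164, 126 and 197 CPM in Ing1 KO, 40.2, 174 and 167 CPM in labelled Gadd45a KO and 1045, 817 and 831 CPM in labelled DKO. Labelled Gadd45a KO replicate 1 was the lowest library for this list, and without it 744 genes were called the same way. In the other lists, Dcn (1 of 15 fibroblast markers), Tek, an endothelial receptor gene (1 of 10, -1.48), and Myh3, embryonic muscle myosin (1 of 6, -3.34), were lower in both. Other members of these lists did not follow: of 10 endothelial markers 4 rose and 1 fell in the pooled contrast, with sums of 155 to 192 CPM in WT, 171 to 191 CPM in labelled Gadd45a KO, 113 to 198 CPM in Ing1 KO and 240 to 281 CPM in labelled DKO, and of 6 skeletal muscle markers 2 rose and 2 fell. The summed skeletal muscle markers were 51 to 68.6 CPM in the intact libraries, 85.1 to 135 CPM in Ing1 KO and 64.9 to 102 CPM in labelled DKO. Tek stood at 1.34 to 2.5 CPM in the intact and 0.284 to 1.16 CPM in the null libraries, and Myh3 at 0.394 to 0.681 CPM and 0 to 0.129 CPM. Reads of genes that overlap another gene on the opposite strand cannot be told apart without strand, and of the genes described these also include Podn, Adamts2, Tnc, Loxl2, Nkd2, Irs1, Plagl1, Tbx15, Hoxd8, Pparg, Ebf1, Jun, Il1b, Aldoa, Gpi1, Plk1, Plk3, Cdca8, Kif20a, Cdk6, Ddit3, Anxa8, Mcf2l and Tubgcp3. No epithelial marker of 5 was called the same way (edgeR; 1 at an unadjusted p under 0.05 throughout, DESeq2 0), though 3 of the 5 rose and none fell in the pooled contrast and their sum was 8.47 to 12.9 CPM in the null and 5.52 to 7.9 CPM in the intact libraries. The part of these cell types in the results was not tested. None was called the same way among 11 neural and Schwann markers (edgeR; 1 at an unadjusted p under 0.05 throughout, DESeq2 1), and no erythroid marker passed the filter.

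**Figure D4:**
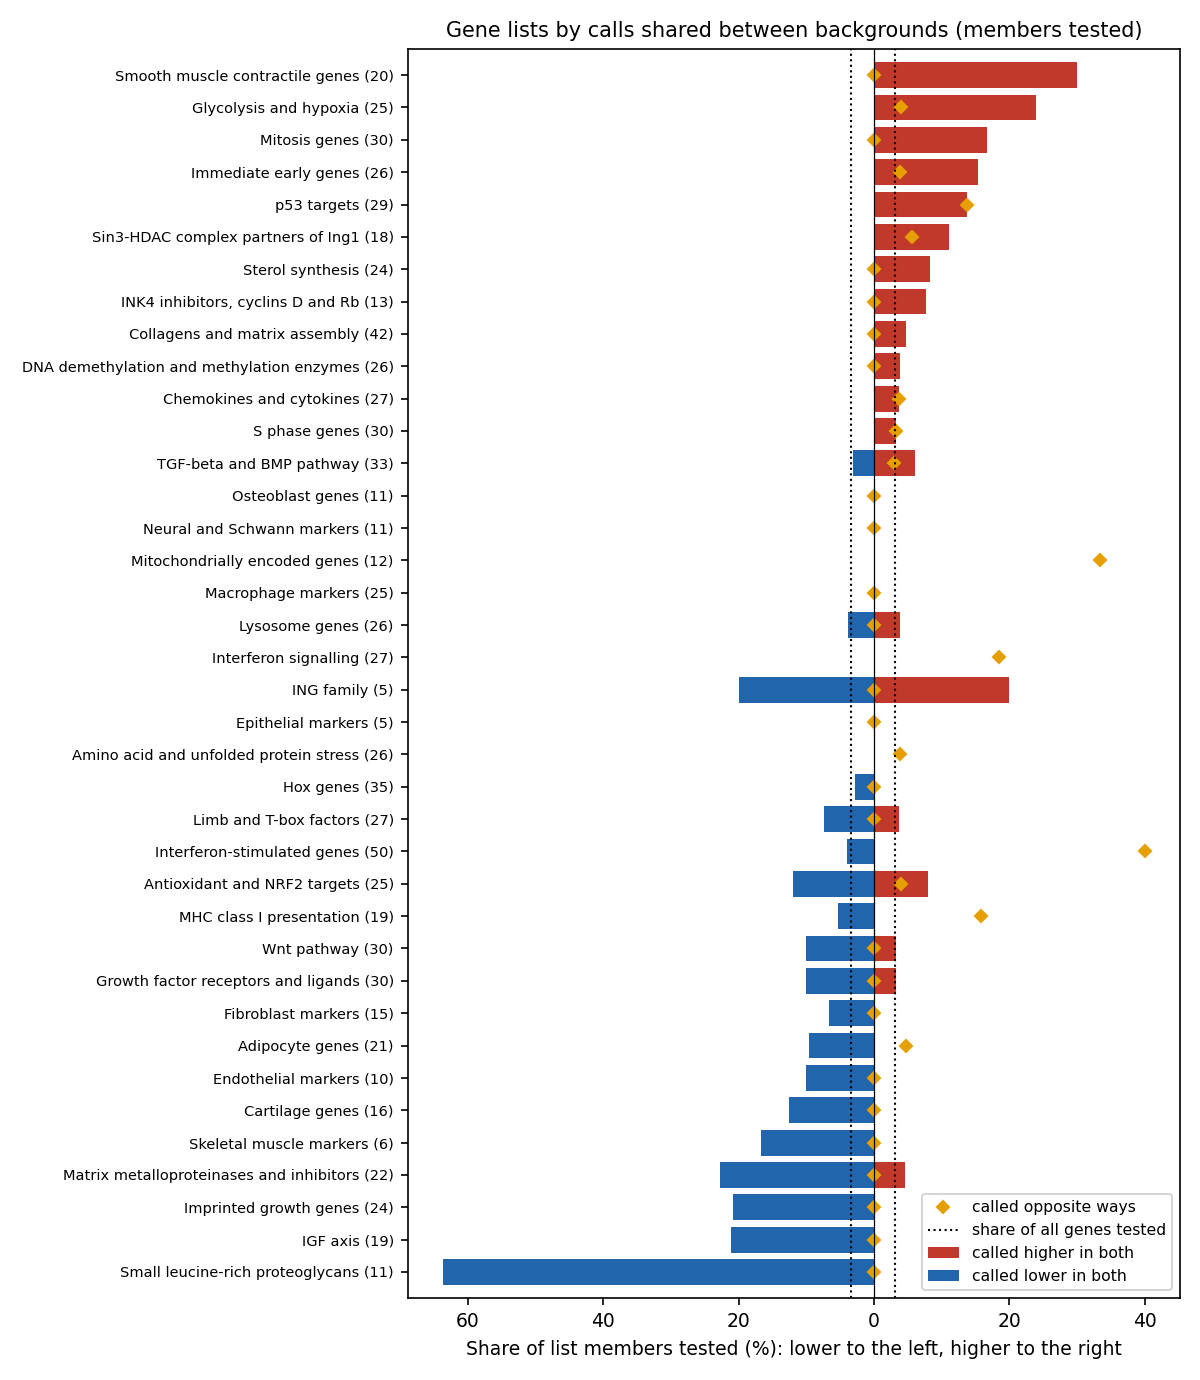
Share of tested members of each gene list (number in brackets) called higher in both backgrounds (red bars, right), lower in both (blue bars, left) or opposite ways (orange diamonds), with dotted lines at the shares of all genes tested, 3.07% higher and 3.38% lower. Small leucine-rich proteoglycans reach 63.6% lower, contractile genes 30% higher and interferon-stimulated genes 40% opposite; the ING family bar is Ing1 itself on the left and Ing2 on the right, of 5 genes.

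Outside the interferon lists, opposite calls were most frequent in 3 lists. They covered 4 of 12 mitochondrially encoded genes, 4 of 29 p53 targets and 3 of 19 genes of MHC class I presentation. Each remaining list held 1 or none, and over all genes tested the share was 1.27%. By the rule for naming, Pcp4l1, Anxa8 and Megf10 had the most negative interactions. Pcp4l1 stood at 4.03, 2.65 and 3.22 CPM in WT, 4.01, 3.20 and 3.64 CPM in labelled Gadd45a KO, 6.46, 6.91 and 6.16 CPM in Ing1 KO and 1.78, 2.81 and 2.60 CPM in labelled DKO. Ing1 KO was highest and labelled DKO, apart from an overlap with WT, lowest, a 1.97-fold rise in one background and a 1.51-fold fall in the other. Megf10, an engulfment receptor gene, rose 1.30-fold and fell 1.79-fold, and Anxa8, an annexin gene, rose 1.58-fold and fell 1.64-fold. Singly in their lists, and named after their values were seen, were Egr1 (0.29 and -0.47), Id2 (-0.27 and 0.60), Nqo1 (0.36 and -0.36), Plin4 (1.13 and -0.99), Mthfd2, Cx3cl1, Rrm1 and Tnrc18.

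Genes next to Ing1 were looked at because they lie on the chromosome that carries the altered allele. Of the 20 tested genes nearest to it in gene order, 10 on each side, 6 were called in the pooled contrast. That contrast called 33.5% of all genes tested and 32.7% of the 770 on chromosome 8. Among the 20, 1 was called the same way in both backgrounds. This was Tubgcp3, a gamma-tubulin complex gene, which fell by 0.20 and was called so in 7 of 18 alternatives. Its level was 47.0 to 50.9 CPM in the intact and 38.9 to 46.6 CPM in the null libraries. The nearest gene on one side, Cars2, was not called (-0.06, edgeR adjusted p = 0.333), and the nearest on the other, Ankrd10, fell by 0.19. Mcf2l rose in the WT background (1.34) and was not called in the Gadd45a background (0.28; interaction edgeR adjusted p = 0.0182). Genes called the same way made up 5.71% of the 770 tested on chromosome 8, beside 6.44% of all, and ranged from 4.39% on chromosome 17 to 10.7% on chromosome 18 among chromosomes with more than 300 tested genes.

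**Figure D5:**
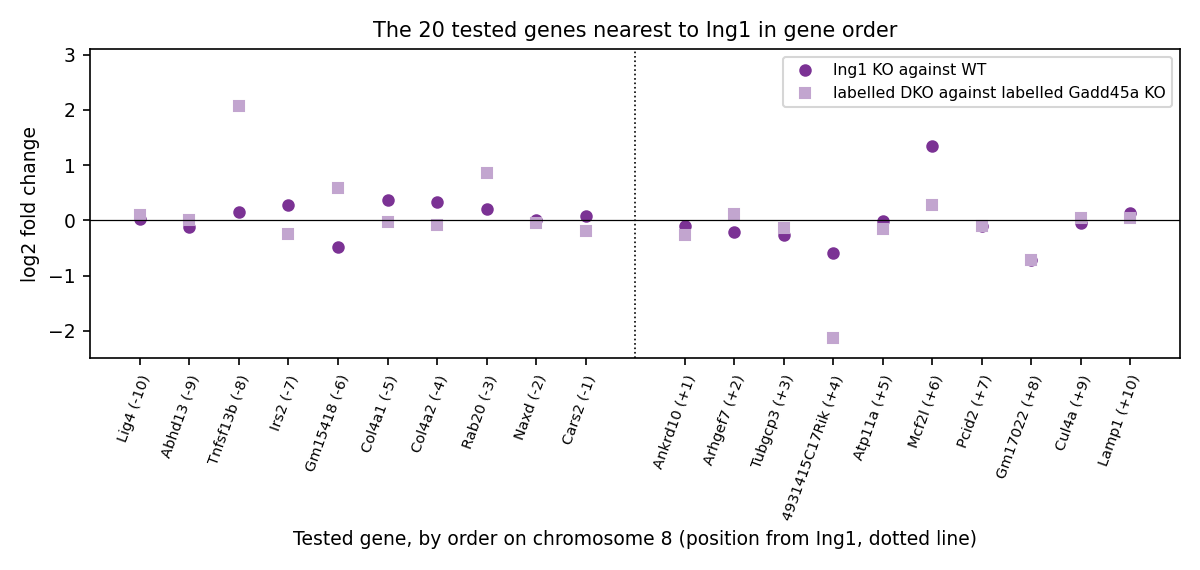
Log2 fold change with Ing1 loss of the 10 tested genes on each side of Ing1 in gene order (x axis), in the WT background (circles) and the Gadd45a background (squares). Most lie near 0; Tubgcp3 is the one called the same way in both backgrounds.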

How the data were processed

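RNA of 12 fibroblast libraries (3 in each of 4 genotypes) was read in 51 cycles from 1 end after polyA selection with an unstranded kit, per the labels' protocols. The deposited values are raw counts per gene; the submitters' processing notes name TopHat2 2.0.9, Bowtie2 2.1.0, HTSeq 0.5.4 and build mm9, and the strand setting of counting is not stated. The 5 summary lines per table (reads in no gene were 23.9 to 24.9% of reads) were removed.

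Counts were fitted with edgeR 4.0.16 (R 4.3.3): filterByExpr, TMM, robust quasi-likelihood over 4 groups, 8 residual degrees of freedom, Benjamini-Hochberg adjustment over 15098 genes. A gene counts as called the same way where the main effect and both within-background contrasts pass 0.05 with 1 sign; the contrasts share their dispersion estimate. Alternatives were RLE scaling, no filter, a replicate block, an additive model, at least 1.5-fold, separate fits, DESeq2 1.42.0 and leaving out each library.

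Named were Ing1 and Gadd45a, the 12 genes that rose and the 12 that fell most (called the same way, mean of 2 CPM or more, no overlap between null and intact libraries), up to 3 members per list, 3 genes per direction of the interaction among those called opposite ways, and called neighbours of Ing1; some of these are not reported here. The comparison, its 39 lists and the genes were chosen with earlier results of these data known. The scripts were tested on simulated data.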

Additional observations from a re-analysis of the deposited data

Results flagged for a closer look

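The effect of Ing1 loss differed between the Gadd45a backgrounds, by the edgeR interaction at an adjusted p under 0.05, for the 26 genes listed here, which come from those picked by the rule for naming; other genes of the report, such as Aspn and Irf7, passed as well. Values are the change in the Gadd45a background minus that in the WT background, on the log2 scale. With 3 libraries per group outlying libraries were not tested for.

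Among interferon-stimulated genes the difference was 3.586 for Ifit1, 3.518 for Isg15, 3.355 for Usp18 and 2.045 for Slfn5, and 0.3491 for the kinase gene Jak2. Macrophage markers differed by 3.003 (Fcgr2b), 2.093 (Cd53) and 1.883 (Cd14). Of the genes that rose in both backgrounds, Camk1d differed by 1.031, Tmem37 by 0.8011, Cdca8 by 0.4411, Ctsd by 0.3603 and Uhrf1 by 0.3276, and Cnn1 by -0.4234.

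Of those that fell in both, Dcn differed by 0.7158, Mgst1 by 0.4771 and Irs1 by -0.577. Genes called opposite ways had values of -1.575 for Pcp4l1, -1.371 for Anxa8 and -1.215 for Megf10. The remaining values were -1.286 for Krt7, an epithelial keratin, -1.256 for Stmn2, a neuronal gene, -1.06 for Mcf2l beside Ing1, -0.7554 for Trib3, -0.6378 for Ddit3, and -0.2468 for Herpud1.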

How the results depend on the processing

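The pooled contrast called 5062 genes and from 3553 (additive model) to 5059 (RLE scaling) in other settings, and from 4072 to 5057 when 1 library was left out. Genes called the same way numbered 973, and 271 (69 higher, 202 lower) where each background had to change at least 1.5-fold, by construction a stricter rule; leaving out 1 library gave 646 (without Ing1 KO replicate 2) to 1033. DESeq2 called 1036, among them 917 of the 973. Opposite calls (191) ran from 82 (without Ing1 KO replicate 2) to 290 (without WT replicate 1), with 97, 118, 110, 124, 123 and 117 without WT replicates 2 and 3, labelled Gadd45a KO replicates 1 and 3 and labelled DKO replicates 1 and 2. Interaction calls (2687) ran from 1305 (without WT replicate 2) to 3322 (without WT replicate 1), with 1609, 1399 and 1617 without WT replicate 3, Ing1 KO replicate 2 and labelled DKO replicate 2. The cause was not tested. With a replicate block 4902 genes were called in the pooled contrast and 935 the same way. After group means were subtracted, same-numbered libraries correlated from -0.177 to 0.336 and differently numbered ones from -0.24 to 0.182. The ranges overlap and the highest value was a same-numbered pair, so whether the numbers pair libraries was not settled.

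Of the 118 named genes, 105 kept in every setting the direction and the call, or lack of one, of the pooled contrast. This does not cover the call the same way in both backgrounds. Tap2 kept that call in 5 of 18 settings, Ptch1 in 4 and Cdk6 in 6, while Lgr5, Kitl and Adamts1 kept it in all 18. Anxa8 changed sign in the additive model (0.001801) and ranged from -0.0962 to 0.02663 with 1 library left out, and Gadd45a from -0.01136 to 0.1365; neither was called in the reported fit. The median over all genes tested moved by under 0.01 (log2).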
